A study of Mus musculus with 2 samples.

Results

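The cells described here are endothelial cells of the mouse ileum that carried transcripts of arterial genes but at most 1 transcript of Fn1, which encodes the matrix protein fibronectin, and S100a4, which encodes a calcium-binding protein. Transcripts were counted as unique molecular identifiers (UMIs), each standing for 1 captured RNA molecule. A cell was a member if it had at least 500 genes detected, at most 15% mitochondrial UMIs, and at least 5 UMIs of the blood endothelial genes Flt1, Cd34, Plvap and Esam summed. It could hold at most 2 UMIs of the lymphatic genes Mmrn1, Lyve1, Reln and Prox1 and at most 1 of the venous genes Ackr1, Selp and Madcam1. Its summed UMIs of Sema3g, Fbln5, Stmn2, Gja5 and Bmx, called the arterial sum below, had to reach 3. These low arterial cells numbered 725 of the 7045 cells that passed the limits on genes and mitochondrial UMIs. Library 1 gave 119 of 978 (12.2%, exact 95% interval 10.2 to 14.4%), and library 2 gave 606 of 6067 (9.99%, 9.25 to 10.8%).

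The study consists of 2 droplet-based 3' single-cell RNA libraries that carry the same labels: wild-type male C57Bl/6 mice, 8 weeks old, endothelial cells of the small intestine. The sort kept EpCAM- CD45- CD31+ cells of the ileum, both PDPN- (blood) and PDPN+ (lymphatic). The sources used here do not tie a cell to its gate. Nothing in the labels says that the libraries came from separate mice. With the library as a block, p-values measure how consistently classes differed within these 2 samples, against a spread mainly shared across genes. That spread may be technical. No treatment was compared, and the comparisons are between classes of cells inside each library.

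The landmarks were 3 classes. High arterial cells met the same limits but held 2 or more UMIs of Fn1 and S100a4 (44 and 328 cells in libraries 1 and 2). Capillary cells met the same limits on genes, mitochondrial UMIs and endothelial, lymphatic and venous counts. They had an arterial sum of 0 and no limit on Fn1 and S100a4. They were divided into a Gpihbp1 kind, with more Gpihbp1 than Plvap UMIs (131 and 588 cells), and a Plvap kind, with more Plvap than Gpihbp1 UMIs (235 and 1629 cells). Gpihbp1 encodes the protein that carries lipoprotein lipase across the capillary wall, and Plvap encodes the protein of the diaphragms in fenestrated capillaries. These names follow from the counts that define the classes. Low cells made up 73.0% of all arterial cells in library 1 (65.5 to 79.7%) and 64.9% in library 2 (61.7 to 67.9%).

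In the vascular tree, arteries branch into arterioles, which open into capillaries. Arterial endothelium is known for Notch signalling, in which membrane ligands such as Jag1 and Dll4 act on Notch receptors of neighbouring cells and switch on Hey and Hes repressors. Large arteries also hold elastic matrix made by endothelial and muscle cells, and arterioles set blood flow through signals such as endothelin. Gut capillaries are fenestrated and take up absorbed nutrients, and capillary endothelium elsewhere is known for handling fatty acids.

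The genes below were chosen to show these roles, and the promoters of 4 of them are printed because their transcripts placed the low cells on the artery or the capillary side. Each sequence runs 5′ to 3′ on the gene's strand from 250 bases before to 50 after the start of the RefSeq transcript, on GRCm38.p6. Capitals mark matches on either strand to a search for RBPJ (TGGGAA), KLF (CACCC), SOX (ACAAT) or HEY (CACGTG) core letters, and adjoining or overlapping matches form 1 run of capitals. Jag1 (Notch ligand, chr2:137116471-137116770, minus strand), Edn1 (endothelin precursor, chr13:42301226-42301525, plus strand) and Vegfc (vascular growth factor, chr8:54077282-54077581, plus strand) were higher in the low cells than in either capillary kind. Car4 (membrane carbonic anhydrase, chr11:84957504-84957803, plus strand) was lower in them than in either kind.
Jag1: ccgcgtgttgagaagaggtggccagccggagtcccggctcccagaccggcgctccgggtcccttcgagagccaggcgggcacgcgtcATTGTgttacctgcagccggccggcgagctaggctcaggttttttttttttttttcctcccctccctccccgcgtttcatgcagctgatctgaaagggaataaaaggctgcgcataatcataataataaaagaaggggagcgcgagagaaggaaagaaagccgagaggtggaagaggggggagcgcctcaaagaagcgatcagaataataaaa
Edn1: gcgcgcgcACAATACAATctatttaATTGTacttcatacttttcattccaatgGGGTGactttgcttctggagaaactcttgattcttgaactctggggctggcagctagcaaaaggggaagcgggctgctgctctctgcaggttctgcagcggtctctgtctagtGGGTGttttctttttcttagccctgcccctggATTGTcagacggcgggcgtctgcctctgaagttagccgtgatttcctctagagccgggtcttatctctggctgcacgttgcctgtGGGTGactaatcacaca
Vegfc: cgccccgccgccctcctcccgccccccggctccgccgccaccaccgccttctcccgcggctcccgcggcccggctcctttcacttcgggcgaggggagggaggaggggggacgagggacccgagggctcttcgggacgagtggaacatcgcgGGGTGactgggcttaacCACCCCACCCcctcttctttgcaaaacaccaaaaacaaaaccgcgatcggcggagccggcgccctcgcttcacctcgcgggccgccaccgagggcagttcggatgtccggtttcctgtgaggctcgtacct
Car4: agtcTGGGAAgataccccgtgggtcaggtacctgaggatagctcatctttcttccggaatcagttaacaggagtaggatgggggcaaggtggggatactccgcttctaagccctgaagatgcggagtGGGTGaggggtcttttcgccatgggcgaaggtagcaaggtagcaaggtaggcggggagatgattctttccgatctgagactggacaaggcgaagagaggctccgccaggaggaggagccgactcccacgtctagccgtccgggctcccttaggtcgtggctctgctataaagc
The Jag1 window held 1 SOX match, the Edn1 window 3 KLF and 4 SOX matches, the Vegfc window 3 KLF matches, and the Car4 window 1 RBPJ and 1 KLF match. Of 32851 promoter windows of the same length, 25.6% held an RBPJ match, 57.5% a KLF match, 31.0% a SOX match and 7.15% a HEY match. These are matches of letters only, and 14 genes were looked up, of which 10 had a window in the table.

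The 2 libraries differed in size, with 3806199 and 26645476 UMIs in 1026 and 6302 deposited barcodes, of which 2 barcodes were shared and none belonged to a low cell. Median UMIs per low cell were 3437 and 4352, against 4205.5 and 4891.5 in high cells. Medians were 2811 and 3248.5 in Gpihbp1 capillary cells and 3647 and 4161 in Plvap capillary cells. Depth thus moved with the split into low and high. With cells thinned to 3000 UMIs before the selection, 163 genes of 7629 differed between low and high cells, against 583 of 9996 without thinning. Thinning also left fewer cells, 65 and 399 low and 23 and 172 high cells. How much of the smaller count came from depth and how much from fewer cells and UMIs was not tested. Pericyte and smooth muscle, fibroblast and epithelial markers were present in every class. In low cells the 7 fibroblast markers summed to 26.6 and 45.8 CPM (the UMIs of a gene scaled to 1000000 UMIs of the class), and the 7 neuron and glia markers to 6.65 and 5.17 CPM. The 8 pericyte and smooth muscle markers summed to 224 and 228 CPM in low, 46.8 and 580 CPM in high, 101 and 332 CPM in Gpihbp1 capillary and 52.6 and 86.7 CPM in Plvap capillary cells, so they were higher in low than in Plvap capillary cells of both libraries. Epithelial markers summed to 11.4 and 822 CPM in Plvap capillary cells, of which 1 cell in library 2 held 3 or more UMIs of them, against 19.9 and 21.7 CPM in low cells. The deepest Plvap capillary cell of library 2 held 97664 UMIs. Cells with 3 or more UMIs of any of these types were 5 and 16 of the low cells. The high class of library 2 stood apart, with 1175 CPM of fibroblast markers against 4.68 CPM in the high class of library 1, so matrix differences from the high cells were also computed without such cells. Low and Plvap capillary cells differed in 957 of 9996 genes with all cells, in 1013 of 9625 without cells of 3 or more UMIs of other types, and in 905 of 9389 with only cells of 2000 to 8000 UMIs.

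The selection itself fixed the levels of the arterial genes, which are given as a description. Sema3g, a semaphorin of arterial endothelium, was at 621 and 500.4 CPM in low cells of libraries 1 and 2 and at 908 and 780.5 CPM in high cells. Stmn2, a microtubule regulator, was at 446 and 391 CPM in low and 655 and 596 CPM in high cells. Fbln5, a protein of elastic fibres, was at 346 and 237 CPM in low and 954 and 864 CPM in high cells. A UMI of Sema3g was found in 84.0% and 82.5% of low cells, and a UMI of Stmn2 in 67.2% and 69.6%. Both genes had 0 UMIs in the capillary classes by definition. The required 3 UMIs were reached with Sema3g alone in 36.1% and 42.6% of low cells, and with Stmn2 alone in 25.2% and 32.2%. The connexin gene Gja5 had a UMI in 33.6% and 30.4% of low cells, and the kinase gene Bmx in 18.5% and 15.3%. The median arterial sum was 5 in low cells of either library and 10.5 and 11 in high cells, so low cells also carried fewer arterial UMIs.

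Both limits cut through a continuum of counts. Of the low cells, 96 and 457 had no UMI of Fn1 or S100a4 and 23 and 149 had 1, while 18 and 101 cells just outside had 2. An arterial sum of exactly 3 was held by 39 and 184 low cells. A sum of 2 kept 73 and 328 cells with at most 1 UMI of Fn1 and S100a4 just outside.

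The markers given for the low cells were checked against the classes, and all 4 that the selection did not use were below the high arterial cells and above both capillary kinds. Plat, the tissue plasminogen activator, was at 474 and 451 CPM in low cells, 912 and 1025 CPM in high cells, 25.9 and 34.5 CPM in Gpihbp1 capillary cells and 262 and 218 CPM in Plvap capillary cells. The Notch ligand Jag1 was at 270.4 and 195 CPM in low, 538 and 519 CPM in high, 54.4 and 54.2 CPM in Gpihbp1 and 127 and 79.6 CPM in Plvap capillary cells. In both genes the 4 classes did not overlap, and the low cells stood between the high cells and the Plvap capillary cells. Cmah, the hydroxylase that makes N-glycolylneuraminic acid, was at 469.9 and 411 CPM in low and 678 and 486 CPM in high cells. It was at 233 and 165 CPM in Plvap capillary cells, and Gpihbp1 capillary cells held 0 and 9 UMIs in all. The low and high values of Cmah did not overlap but lay close in library 2, at 411 and 486 CPM. Clu, a secreted chaperone, was at 503 and 514 CPM in low, 964 and 1041 CPM in high, 18.1 and 30.7 CPM in Gpihbp1 and 304 and 394 CPM in Plvap capillary cells, again in the same order and with no overlap. None of these 4 genes was highest in the low cells. On GRCm38 the genes lie at chr8:22757727-22782844 (Plat), chr2:137081456-137116644 (Jag1), chr13:24327404-24477377 (Cmah) and chr14:65968483-65981547 (Clu).

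**Figure D1:**
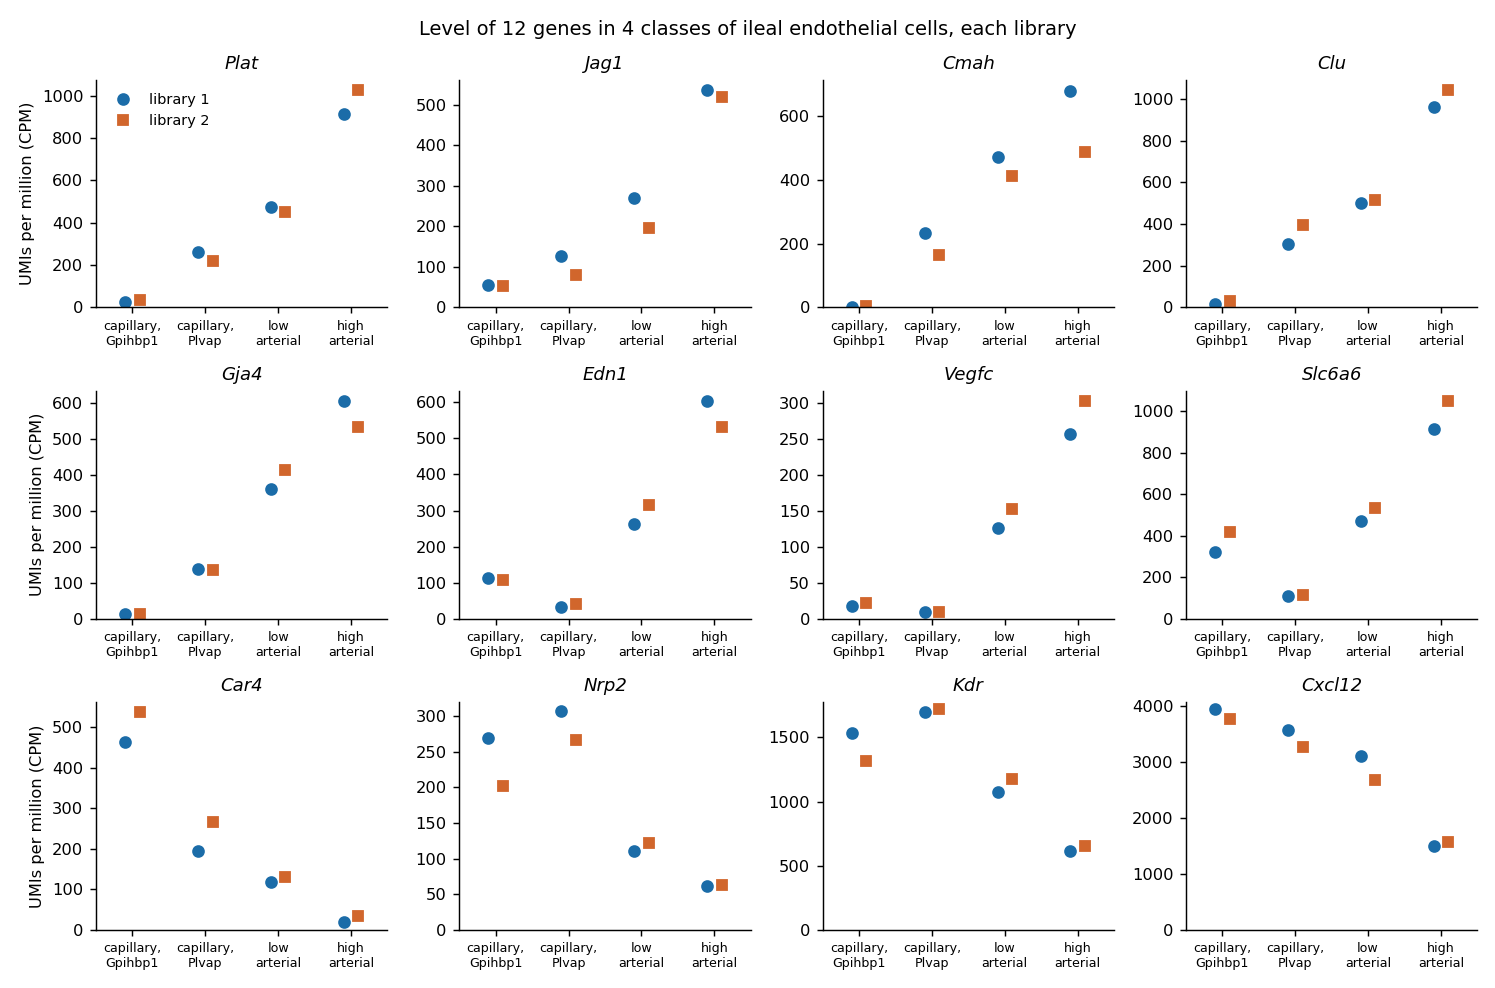
Levels in CPM (linear axis) of genes by class, with 1 point for each library and class. Plat, Jag1 and Clu in low arterial cells lie between high arterial and Plvap capillary cells in both libraries, and Car4 lies between high arterial cells and both capillary kinds.

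Against high arterial cells, low cells held less message for structural matrix, for vasoactive products and for the Notch genes Jag1, Jag2 and Hey1, and more for lipid-handling genes and for the receptors Kdr and Aplnr. Of 9996 genes tested, 583 passed a false discovery rate of 0.05 (5.83%), 236 higher (2.36%) and 347 lower (3.47%) in low cells, by edgeR's quasi-likelihood test on UMI sums with the library as a block. Fold changes below are log2 fold changes ± SE from that fit, and p-values are adjusted over all genes tested. The low sums enter all 3 comparisons, which are therefore not independent of each other.

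The largest decreases, among genes that reached 50 CPM in high cells of both libraries, included genes of the vessel-wall matrix. Bgn, the proteoglycan biglycan, was at 26.6 and 14.5 CPM in low and 225 and 158 CPM in high cells (-3.40 ± 0.24, edgeR adjusted p = 5.13e-18). Lox, which cross-links elastin and collagen, was at 17.7 and 2.75 CPM in low and 98.2 and 51.5 CPM in high cells (-3.54 ± 0.41, adjusted p = 1.80e-10). Pi16 gave 0 and 6 UMIs in low cells and was at 70.2 and 59.95 CPM in high cells (adjusted p = 5.30e-13). For each of the 3 genes the low cells lay far under the high cells in both libraries. Cytl1 (-4.15), the serine protease gene Htra1 (-3.04), Col18a1 (-2.63), which encodes the collagen that yields endostatin, Nebl (-2.57), Atp2a3 (-2.23), which encodes a calcium pump, Palld (-2.20), which encodes an actin-binding protein, and Emp3 (-2.18) completed the 10 largest of this kind. Fibroblasts can also express Bgn, Pi16 and Htra1. Without cells that held 3 or more UMIs of another cell type's markers, 576 of 9625 genes passed, Bgn differed by -3.10 ± 0.30, Pi16 by -5.07 ± 0.50 and Htra1 by -3.03 ± 0.29.

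Eln, which encodes tropoelastin, was at 124 and 137 CPM in low and 416 and 313 CPM in high cells (-1.34 ± 0.13, edgeR adjusted p = 1.01e-13). Mgp, an inhibitor of calcification, was at 48.8 and 41.7 CPM in low and 1773 and 845 CPM in high cells, apart in both libraries, but did not pass (-4.64 ± 0.69, edgeR adjusted p = 0.0665). Genes of the basement membrane went either way. Col4a1 (0.67), Col4a2 (0.69), Hspg2, which encodes perlecan (0.70), and Nid1 (0.54) were higher in low cells, while Col18a1, given above, and the laminin gene Lamb2 (-0.43 ± 0.12, edgeR adjusted p = 0.0109) were lower. Col15a1 was at 324 and 339.6 CPM in low and 103 and 103 CPM in high cells. In the list of elastic and other matrix genes, 8 of the 30 tested were higher and 14 lower in low cells, with a median of -0.48 against 0.01 over all genes tested.

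Among Notch and arterial identity genes, 2 of 26 were higher and 7 lower, with a median of -0.13. The ligands Jag1 (-1.31 ± 0.12, edgeR adjusted p = 8.16e-15) and Jag2 (-0.79 ± 0.13), the target Hey1 (-0.50 ± 0.13), the transcription factor genes Sox17 (-0.41 ± 0.11) and Epas1 (-0.40 ± 0.09), the connexin gene Gja4 (-0.50 ± 0.11) and Tmem100 were lower. Of these 7, Jag1, Jag2 and Hey1 belong to the Notch pathway. The target Hes1 (0.37 ± 0.10) and the VEGF co-receptor gene Nrp1 (0.57 ± 0.10) were higher. Dll4 (-0.09 ± 0.12, adjusted p = 0.851), Notch1 (0.10 ± 0.11, adjusted p = 0.785) and Efnb2 (-0.17 ± 0.11, adjusted p = 0.537) did not pass. The receptor gene Notch4 did not pass either.

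Vasomotor genes were lower or did not pass: 5 of 17 were lower, none higher, and the median was -0.49. Edn1 was at 262 and 316 CPM in low and 604 and 533 CPM in high cells (-0.90 ± 0.11, edgeR adjusted p = 1.55e-09). Nos3, the endothelial nitric oxide synthase, was at 206 and 221 CPM in low and 318 and 296 CPM in high cells (-0.49 ± 0.12). Kcnn4, a calcium-activated potassium channel of endothelium, gave 2 and 3 UMIs in low cells and was at 74.9 and 39.02 CPM in high cells. Of 15 coagulation genes 7 were lower and 1 higher, with a median of -0.41. The lower ones included Plat (-1.13 ± 0.10), Clu (-1.01 ± 0.10) and Procr, the protein C receptor (-0.66 ± 0.18), and the higher one was Thbd, which encodes thrombomodulin (0.40 ± 0.12). Serping1, also lower (-2.54), was at 17.7 and 17.2 CPM in low and 18.7 and 118 CPM in high cells, so its difference rested on library 2, whose high class held the fibroblast markers. Without cells holding 3 or more UMIs of another cell type's markers it was -1.59 ± 0.34 (edgeR adjusted p = 1.47e-04).

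Several genes known from capillaries were higher in low than in high cells, but not all of them. Car4 was at 117 and 131 CPM in low and 18.7 and 33.4 CPM in high cells (2.02 ± 0.19, edgeR adjusted p = 1.01e-13). Esm1, a VEGF-induced proteoglycan gene, was at 133 and 128 CPM in low and 51.5 and 32.2 CPM in high cells (1.88 ± 0.20). Kdr, the main VEGF receptor gene, was at 1075 and 1172 CPM in low and 613 and 657 CPM in high cells (0.80 ± 0.10, adjusted p = 9.19e-10). The co-receptor gene Nrp2 (0.90), the apelin receptor gene Aplnr (1.62), the protease inhibitor gene Ctla2a (1.69) and the chemokine gene Cxcl12 (0.88) were also higher. Of 21 lipid-handling genes 13 were higher and none lower, with a median of 0.61. They included the fatty acid carriers Cd36 (0.61) and Fabp4 (0.62), the scavenger receptor Scarb1 (1.22), the cholesterol exporter Abca1 (0.66) and Cd300lg (1.47). Cldn5, a claudin of endothelial tight junctions, was lower in low than in high cells, at 228 and 186 CPM in low and 253 and 272 CPM in high cells (-0.49 ± 0.13, edgeR adjusted p = 0.00808). Of 13 junction genes 2 were higher, Jam3 and Gja1, and 2 lower, Cldn5 and Cgnl1. Of 16 solute transporters 7 were higher and 1, the taurine transporter Slc6a6 (-0.996), was lower.

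Because low cells held fewer arterial UMIs, the comparison was repeated with low and high cells matched on the arterial sum within each library (36 and 234 cells of each class). That left 146 of 9438 genes past the threshold (1.55%), 39 higher (0.413%) and 107 lower (1.13%). Bgn (-3.06 ± 0.30), Lox (-2.20 ± 0.59), Pi16 (-4.40 ± 0.76), Htra1 (-1.54 ± 0.38), Nebl (-1.71 ± 0.33) and Tgfb2, a growth factor gene (-1.44 ± 0.21), stayed lower by edgeR. Jag1 stayed lower by a smaller amount (-0.65 ± 0.15, edgeR adjusted p = 0.00667), and Kdr (0.55 ± 0.13, adjusted p = 0.00962) and Col15a1 (1.38 ± 0.19) stayed higher. Plat (-0.43 ± 0.14, adjusted p = 0.154), Clu (-0.28 ± 0.14, adjusted p = 0.617), Edn1 (-0.34 ± 0.15, adjusted p = 0.461), Vegfc (-0.16 ± 0.17, adjusted p = 0.912), Eln (-0.44 ± 0.16, adjusted p = 0.263) and Car4 (0.89 ± 0.29, adjusted p = 0.154) no longer passed. Cmah (0.25), Dkk2 (0.09) and Gja4 (0.25) changed sign without passing. In the matched cells the lipid-handling list had 2 higher and 1 lower, the Notch and arterial identity list none higher and 1 lower, and the matrix list 1 higher and 6 lower.

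Compared with Plvap capillary cells, which were the larger capillary kind, low cells held more message for Vegfc, Edn1 and Jag1 and less for the receptors Kdr, Nrp2 and Aplnr. Of the 9996 genes, 957 passed (9.57%), 551 higher (5.51%) and 406 lower (4.06%) in low cells. Vegfc was at 126 and 153 CPM in low and 9.14 and 8.52 CPM in Plvap capillary cells (4.07 ± 0.18, edgeR adjusted p = 2.61e-32). Alpl, which encodes alkaline phosphatase, was at 142 and 129 CPM in low and 11.4 and 7.82 CPM in Plvap capillary cells (3.93 ± 0.19). Edn1 was at 262 and 316 CPM in low and 33.1 and 39.2 CPM in Plvap capillary cells (2.94 ± 0.13). These 3 genes were several-fold higher in the low cells of both libraries. The Wnt antagonist gene Dkk2 (2.73), the fibulin gene Fbln2 (2.74), Sulf1 (2.65) and Pcsk5 (3.23) were also among the largest increases of genes that reached 50 CPM. The markers differed by less, with Plat at 0.95 ± 0.10, Jag1 at 1.20 ± 0.12, Cmah at 1.18 ± 0.11 and Clu at 0.47 ± 0.10 (edgeR adjusted p = 2.88e-04, the largest of the 4).

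Of 26 Notch and arterial identity genes 13 were higher and 2 lower, with a median of 0.38 against -0.01 over all genes. The higher ones of the Notch pathway were Jag1, Jag2, Dll1, Notch4 and Hey1, and the others were Sox17, Mecom, Epas1, Efnb2, Gja4, Cxcr4, Unc5b and Tmem100. Among them were Gja4 (1.51 ± 0.11), Hey1 (0.87 ± 0.12), Efnb2 (0.60 ± 0.10), Jag2 (0.95 ± 0.12) and Sox17 (0.40 ± 0.10). The Notch target Hey2 (-1.15) and the co-receptor gene Nrp1 (-1.15) were lower. Of 16 BMP and Wnt genes 9 were higher and none lower, with a median of 0.39. They included the BMP targets Id1 (0.30) and Id3 (0.47), the inhibitor Smad6 (1.88) and the receptor Bmpr2 (0.29). Eln (1.54 ± 0.14) and Ltbp4, a latent TGF-beta binding protein (0.61 ± 0.09), were higher, while Col4a1 (-0.75), Hspg2 (-0.86) and Col15a1 (-1.13) were lower, and the matrix list as a whole had 9 higher and 10 lower of 30. Kdr (-0.63 ± 0.09), Nrp2 (-1.25 ± 0.12), Esm1 (-1.44 ± 0.12) and Aplnr (-1.88 ± 0.16) were lower. Of 19 VEGF, angiopoietin and apelin genes 4 were higher and 6 lower, with a median of -0.16. The higher ones were Vegfc, Kitl, Pdgfd and Ptprb, a phosphatase gene of endothelium (0.61 ± 0.08, edgeR adjusted p = 7.38e-09). The largest decrease among genes that reached 50 CPM was in Fam167b, at 6.65 and 10.3 CPM in low and 97.1 and 101 CPM in Plvap capillary cells (-3.40 ± 0.22). Chst2 (-2.27), the lactate transporter gene Slc16a1 (-2.20) and Lrg1 (-1.73) were further decreases.

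Against Gpihbp1 capillary cells the low cells differed in more genes, 1654 of 9996 (16.5%), 942 higher (9.42%) and 712 lower (7.12%). Scaling to the total UMIs alone gave 785 higher and 928 lower genes. The balance of directions in this comparison depends on scaling. Gja4 was at 361 and 412 CPM in low and 12.9 and 12.95 CPM in Gpihbp1 capillary cells (5.02 ± 0.19, edgeR adjusted p = 1.62e-37). Plat (3.88 ± 0.15), Clu (4.29 ± 0.16), Jag1 (2.05 ± 0.16), Vegfc (2.88 ± 0.19) and Edn1 (1.57 ± 0.13) were higher. Of 26 Notch and arterial identity genes 13 were higher and 3, Hes1, Nrp1 and Sox17, lower, with a median of 0.42. Sox17 was at 337 and 491 CPM in low and 489 and 612 CPM in Gpihbp1 capillary cells (-0.29 ± 0.10, edgeR adjusted p = 0.0352). Several of the largest increases were in genes that Plvap capillary cells carry as well. Slco2a1, the prostaglandin transporter, was at 1086 and 1041 CPM in low, 12.9 and 37.9 CPM in Gpihbp1 and 1728 and 1931 CPM in Plvap capillary cells. Igfbp4 was at 1354 and 1131 CPM in low, 7.77 and 39.3 CPM in Gpihbp1 and 820.4 and 735 CPM in Plvap capillary cells. Tspan8 was at 290.4 and 373 CPM in low, 0 and 10.1 CPM in Gpihbp1 and 195 and 278 CPM in Plvap capillary cells. For these 3 genes low cells and Plvap capillary cells both stood far above Gpihbp1 capillary cells.

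Genes of lipid uptake, caveolae and tight junctions were among those lower than in Gpihbp1 capillary cells. Of 21 lipid-handling genes 16 were lower and 3 higher, with a median of -1.02. Cd36 was at 1751 and 1744 CPM in low and 3996 and 3846 CPM in Gpihbp1 capillary cells (-1.07 ± 0.08, edgeR adjusted p = 7.71e-19). Lpl, the lipase itself, was at 126 and 78.2 CPM in low and 554 and 372 CPM in Gpihbp1 capillary cells (-2.12 ± 0.12). Of 10 genes in the caveolae list 7 were lower and 2, Cavin3 and Ehd4, higher. The lower ones included Cav1 (-0.74) and the water channel gene Aqp1, which was counted in this list. Aqp1 was at 1159 and 767 CPM in low and 6254 and 4956 CPM in Gpihbp1 capillary cells (-2.48 ± 0.12). Cldn5, a tight junction claudin, was at 228 and 186 CPM in low and 1567 and 959 CPM in Gpihbp1 capillary cells (-2.43 ± 0.11). Car4 (-1.95 ± 0.12) and Aplnr (-2.27 ± 0.17) were lower too, while Kdr did not pass (-0.22 ± 0.09, edgeR adjusted p = 0.0842).

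The position between artery and capillary was measured with genes chosen in 1 library and read in the other. A gene entered if it reached 100 CPM and differed at least 4-fold between high arterial cells and each capillary kind in the same direction. Its position was set to 0 at the mean of the capillary kinds and to 1 at the high arterial cells, on log2(CPM + 1), with all selection genes left out. Choosing in library 2 and measuring in library 1, the median position of the low cells was 0.639 over 36 artery-side genes (interquartile range 0.515 to 0.841), and 28 of the 36 lay nearer the artery. Choosing in library 1 and measuring in library 2, it was 0.526 over 31 genes (0.402 to 0.625), and 17 of 31 lay nearer the artery. Capillary-side genes gave 0.405 over 4 genes in library 1 and 0.450 over 13 in library 2. Not every gene was informative, since Col1a1, Col1a2, Col3a1 and Adamdec1, chosen in library 2, had 0 CPM in the high cells of library 1. With only genes that were at least 2-fold apart the same way in the library measured, a setting chosen after seeing the data, the artery-side median was 0.633 over 28 genes in library 1, 22 of them nearer the artery, and 0.528 over 30 genes in library 2, 17 of them nearer. By these genes the summed low cells lay about midway, with message of both sides.

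Individual genes took different places on that scale. Positions are given for library 1 and then library 2, and those of Gja4 and Nrp2 in library 1 and of Plat and Fbn1 in library 2 were read in the library that chose them. Nearer the artery in both libraries lay Vegfc at 0.758 and 0.776, Edn1 at 0.632 and 0.751, Dkk2 at 0.838 and 0.757, Gja4 at 0.804 and 0.898, and Plat at 0.726 and 0.666. Jag1 was at 0.631 and 0.526 and Tgfb2 at 0.676 and 0.607. Matrix genes varied: Eln was at 0.389 and 0.572, Bgn at 0.401 and 0.053, Mgp at 0.497 and 0.186, Sulf1 at 0.591 and 0.531 and Fbn1 at 0.926 and 0.654. On the capillary side Ctla2a was at 0.305 and 0.338, Car4 at 0.342 and 0.441, Aplnr at 0.537 and 0.553 and Nrp2 at 0.615 and 0.495.

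**Figure D2:**
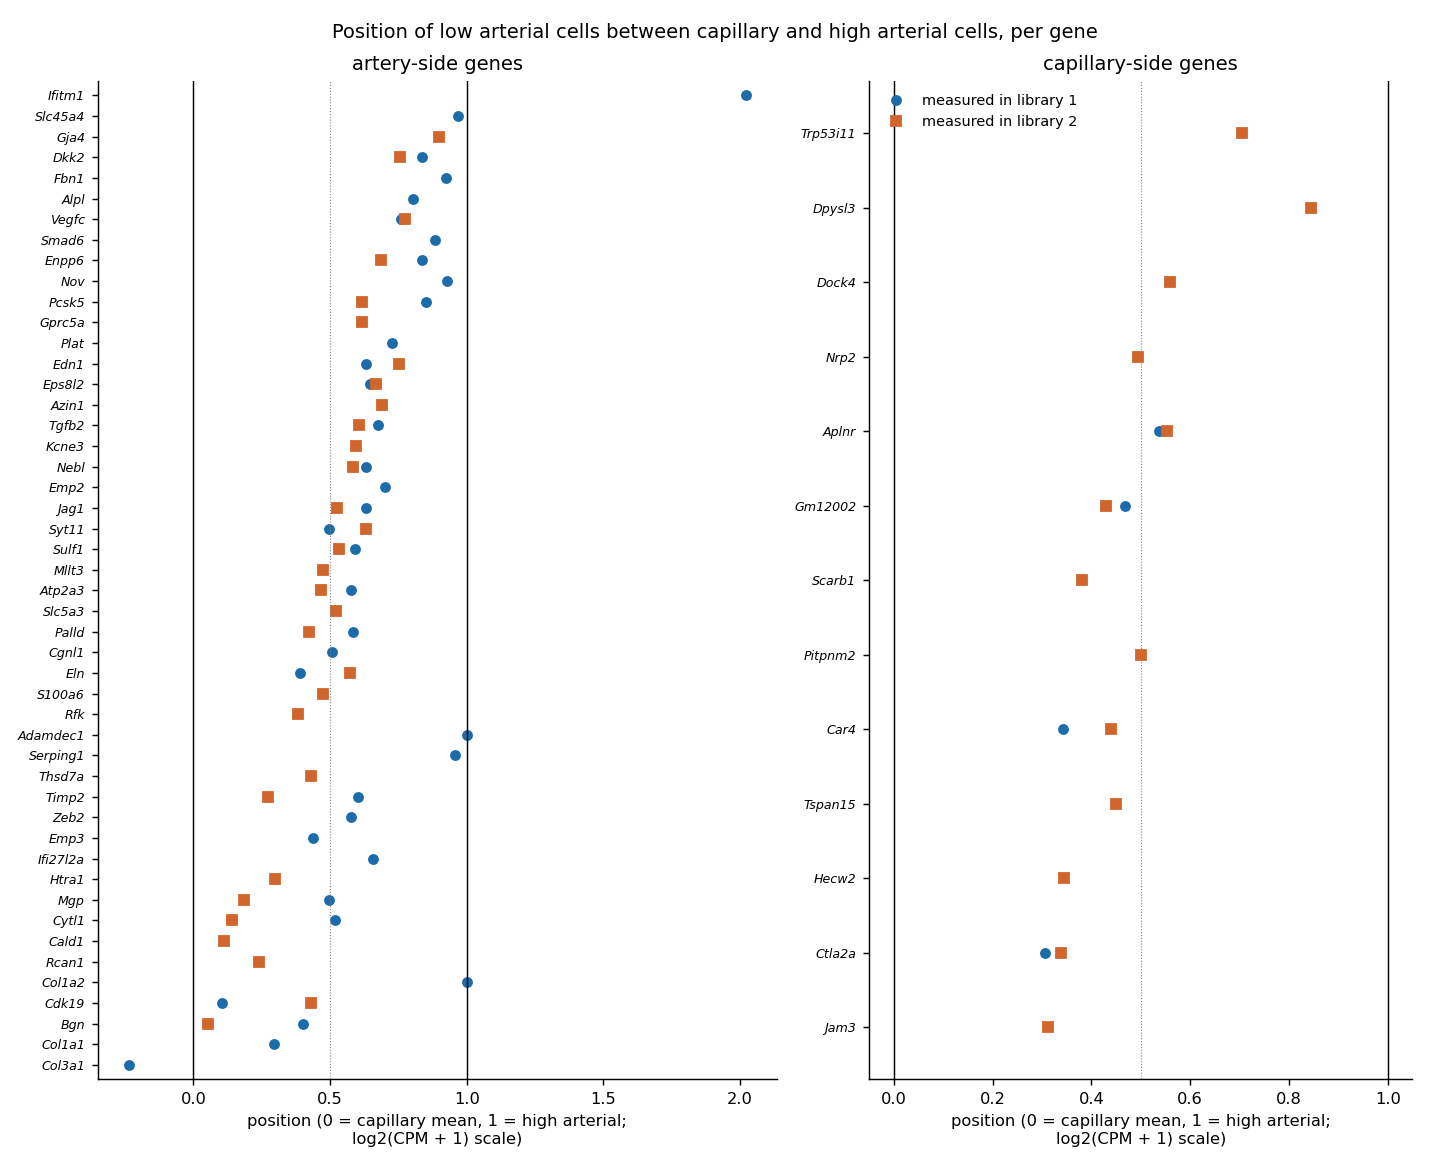
Position of the low arterial cells (x axis, no unit, 0 = mean of the 2 capillary kinds, 1 = high arterial cells) for genes chosen in 1 library and measured in the other. Medians of the artery-side genes were 0.639 in library 1 and 0.526 in library 2.

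Cell by cell, the same question was asked of each cell thinned to 1500 UMIs, with genes at least 2-fold apart, since the 4-fold capillary-side genes gave a median of 0 UMIs in library 1. The share of artery-side UMIs among artery-side and capillary-side UMIs had a median of 58.9% in low cells of library 1 (interquartile range 37.0 to 76.0%) and 52.2% in library 2 (38.7 to 66.2%). High arterial cells had medians of 82.0 and 76.9%, Gpihbp1 capillary cells 26.6 and 24.0%, and Plvap capillary cells 29.6 and 29.1%. Cells with an arterial sum of 1 or 2 had 35.3 and 36.1%. The low medians were between the landmarks in both libraries, and the spread of low cells was broad. Above the 90th percentile of capillary cells (47.8 and 43.5%) lay 64 of 108 low cells in library 1 (59.3%) and 407 of 600 in library 2 (67.8%). Above the median of high cells lay 15.7 and 10.2% of low cells. Thinning left out 11 and 6 low cells as too shallow.

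**Figure D3:**
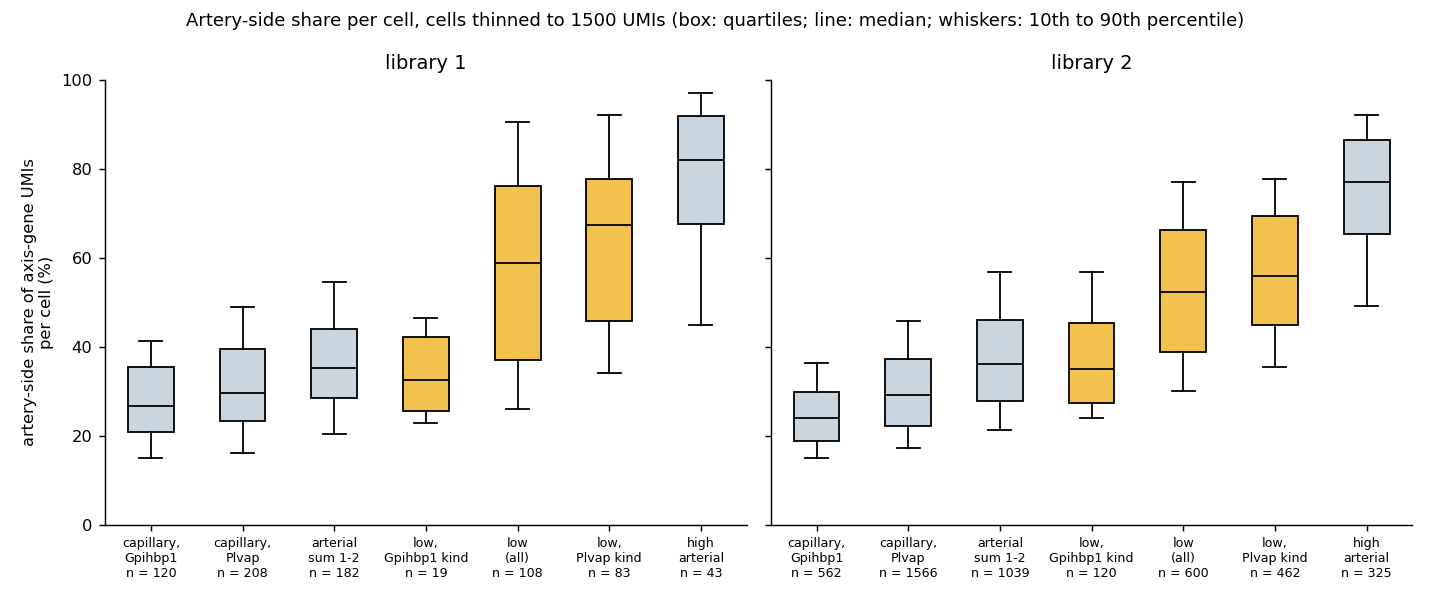
Percent of artery-side UMIs among artery-side and capillary-side UMIs in cells thinned to 1500 UMIs, by class and library. Low arterial cells had medians of 58.9 and 52.2%, between capillary cells (24.0 to 29.6%) and high arterial cells (82.0 and 76.9%).

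Part of that spread followed which capillary gene the low cells carried. Low cells with more Plvap than Gpihbp1 UMIs numbered 92 of 119 (77.3%) in library 1 and 467 of 606 (77.1%) in library 2, and low cells with more Gpihbp1 numbered 19 (15.97%) and 121 (19.97%). The rest had equal counts. The artery-side share had medians of 67.3 and 55.8% in the Plvap low cells and 32.6 and 34.9% in the Gpihbp1 low cells. The main comparisons used no class of fewer than 20 cells in a library, so levels of the Gpihbp1 low cells are given without a test. The 4 given markers outside the selection were lower in the Gpihbp1 than in the Plvap low cells. Cmah was at 563 and 519 CPM in Plvap low cells and 0 and 5.36 CPM in Gpihbp1 low cells. Plat was at 561 and 540.2 CPM in Plvap and 83.1 and 109 CPM in Gpihbp1 low cells. Clu was at 594 and 617 CPM in Plvap and 55.4 and 116 CPM in Gpihbp1 low cells, and Gja4 was at 421 and 501 CPM in Plvap and 69.3 and 78.6 CPM in Gpihbp1 low cells. Cmah, Plat, Clu and Gja4 did not overlap between these sorts of low cell, and no share over all genes is given. Plat, Clu and Gja4 in Gpihbp1 low cells were above Gpihbp1 capillary cells in both libraries. Those capillary cells held 25.9 and 34.5 CPM of Plat and 12.9 and 12.95 CPM of Gja4. Plvap capillary cells held more, at 262 and 218 CPM of Plat and 138 and 134 CPM of Gja4. Jag1 was at 318 and 225 CPM in Plvap low cells and at 69.3 and 67.9 CPM in Gpihbp1 low cells (library 2 counting interval 48.04 to 93.2 CPM), against 54.4 and 54.2 CPM in Gpihbp1 capillary cells. Lymphatic cells, with 5 or more lymphatic UMIs, held 44.8 and 41.4 CPM of Jag1.

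Other arterial genes, Efnb2, Hey1 and Alpl, were carried by both sorts of low cell. Efnb2 was at 452 and 417 CPM in Plvap low cells and 416 and 336 CPM in Gpihbp1 low cells, against 186 and 179.9 CPM in Gpihbp1 capillary cells. Hey1 was at 153 and 158 CPM in Plvap and 291 and 252 CPM in Gpihbp1 low cells, against 93.2 and 75.8 CPM in Gpihbp1 capillary cells. Alpl was at 119.9 and 104 CPM in Plvap and 180.1 and 214 CPM in Gpihbp1 low cells, against 67.3 and 49.9 CPM in Gpihbp1 capillary cells. Tgfb2 was at 69.3 and 57.2 CPM in Gpihbp1 low cells and 2.59 and 9.59 CPM in Gpihbp1 capillary cells. Its level in Plvap low cells is not given, and the first value rests on 19 cells. In these 4 examples the Gpihbp1 low cells were above the Gpihbp1 capillary cells in both libraries, and no share over all genes is given. Their median artery-side share (32.6 and 34.9%) was above that of Gpihbp1 capillary cells (26.6 and 24.0%). It was not above that of cells with an arterial sum of 1 or 2 (35.3 and 36.1%). The selection genes carried also differed, with Gja5 UMIs in 0 of 19 (which allows a share of up to 15.8% of cells with a UMI) and 7.44% of Gpihbp1 low cells and in 41.3 and 36.2% of Plvap low cells. Stmn2 UMIs were found in 73.7 and 73.6% of Gpihbp1 and 66.3 and 69.0% of Plvap low cells. These shares follow from the selection.

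Several values of the whole low class against Plvap capillary cells rested on the Gpihbp1 low cells. Cldn5 was at 1219 and 718 CPM in Gpihbp1 and 19.5 and 53.4 CPM in Plvap low cells. Lpl was at 693 and 325 CPM in Gpihbp1 and 5.58 and 18.8 CPM in Plvap low cells. Timp4, which encodes a metalloproteinase inhibitor, was at 1025 and 606 CPM in Gpihbp1 and 16.7 and 26.7 CPM in Plvap low cells. These genes, and Aqp1 at 5931 and 1999 CPM in Gpihbp1 and 192 and 473 CPM in Plvap low cells, did not overlap. The share of all genes without overlap is not given. With the arterial classes restricted to cells with more Plvap than Gpihbp1 UMIs, 655 of 9597 genes differed from Plvap capillary cells (6.83%), 402 higher (4.19%) and 253 lower (2.64%). Under that restriction Lpl moved from 3.17 to 0.87 ± 0.74 (edgeR adjusted p = 0.779), Timp4 from 3.05 to 0.54 ± 0.24 (adjusted p = 0.239), Cldn5 from 2.64 to 0.67 ± 0.34 (adjusted p = 0.467) and Aqp1 from 1.68 to 0.47 ± 0.50 (adjusted p = 0.845), and none of them passed. The lipid-handling list went from 10 higher and 4 lower to 5 and 5. Arterial genes stayed higher by edgeR: Vegfc was at 4.27 ± 0.18, Alpl at 3.65 ± 0.20, Edn1 at 2.84 ± 0.14, Dkk2 at 3.07 ± 0.22, Gja4 at 1.80 ± 0.11 and Jag1 at 1.44 ± 0.13.

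**Figure D4:**
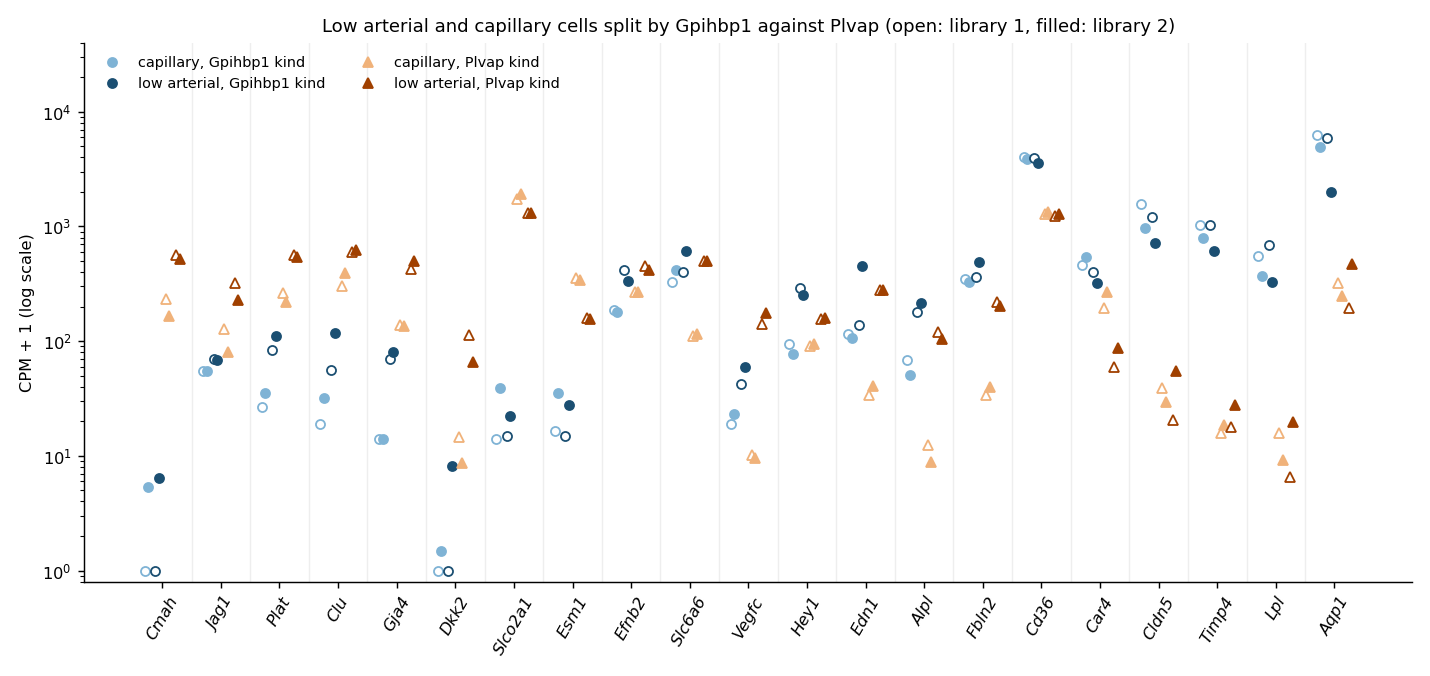
Levels in CPM (log axis) of genes in low arterial cells with more Gpihbp1 or more Plvap UMIs, beside the capillary cells of the same kind, with 1 point for each library. Plat, Clu and Cmah were high in the Plvap low cells, while Cldn5 and Aqp1 followed the Gpihbp1 kind.

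Along the arterial sum, levels of arterial genes outside the selection were higher in the upper bins of the low class. Values are for library 1 and then library 2. Jag1 was at 105 and 73.6 CPM in cells with an arterial sum of 0 and 98.5 and 110.1 CPM at a sum of 2. In low cells it was at 227 and 115 CPM at a sum of 3, 172 and 152 CPM at 4 or 5 and 373 and 282 CPM at 6 or more. Plat was at 265 and 329.6 CPM in low cells with a sum of 3, 306 and 399.5 CPM at 4 or 5 and 745 and 573 CPM at 6 or more. Gja4 was at 265 and 251 CPM, then 328 and 336 CPM, then 454 and 580.0 CPM in these bins. Vegfc was at 10.1 and 11.6 CPM at a sum of 0, and at 75.8 and 66.2 CPM, then 52.2 and 114 CPM, then 216 and 242 CPM in the low bins. Car4 was at 279 and 329 CPM at a sum of 0, and at 159 and 219 CPM, then 149 and 119 CPM, then 64.8 and 75.3 CPM in the low bins. In library 2 each of the 5 genes was ordered over the 3 low bins, and in library 1 the bins of 3 and of 4 or 5 were out of order for Jag1 and Vegfc. These bins are a description, as the sum also grows with a cell's depth.

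**Figure D5:**
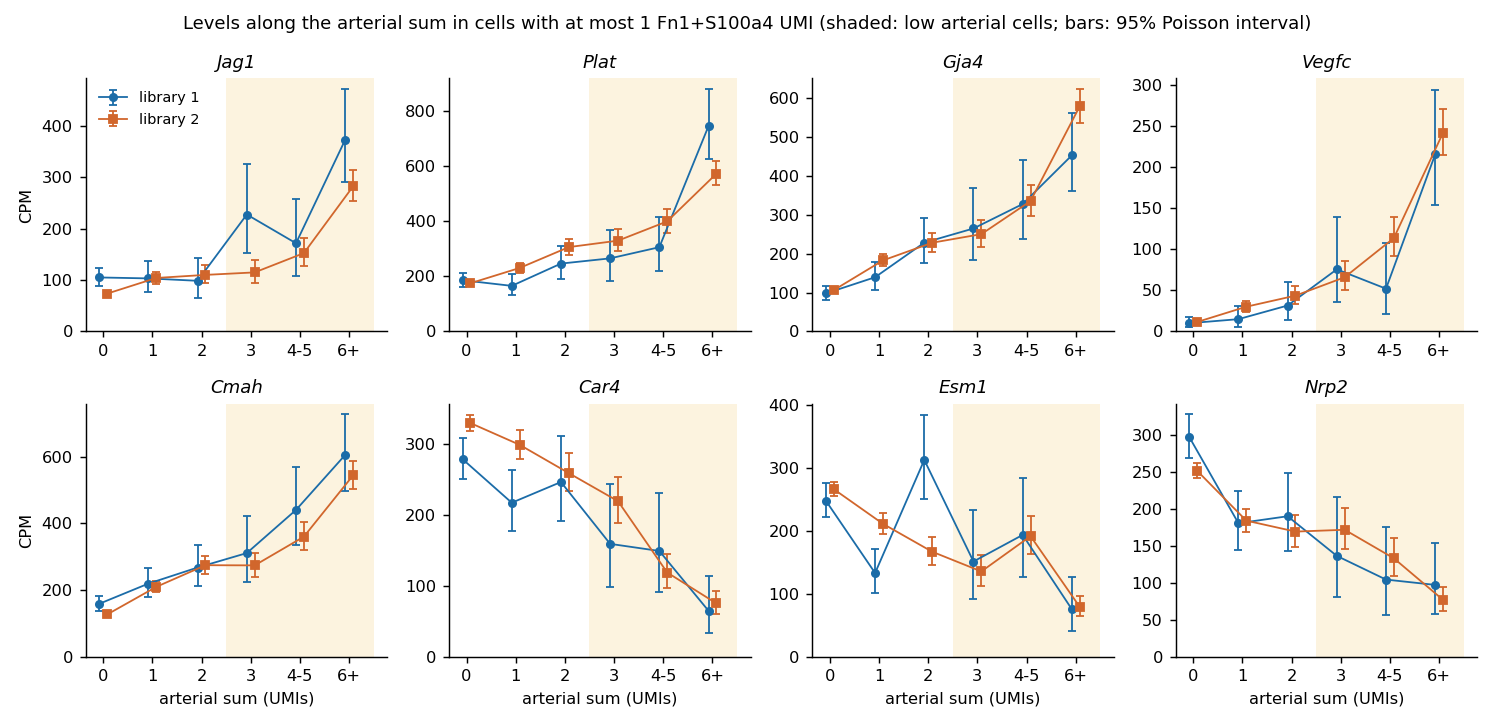
Levels in CPM by arterial sum (UMIs of the 5 arterial selection genes) in cells outside (0, 1, 2) and inside (3, 4 to 5, 6 or more) the low class, with 1 line for each library. Jag1, Plat, Gja4 and Vegfc are highest, and Car4 lowest, in low cells with a sum of 6 or more.

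Along Fn1 and S100a4, the matrix gene Mgp was at 26.4 and 27.5 CPM in arterial cells with no UMI of them and 167 and 84.2 CPM with 1, both inside the low class. It was at 102 and 311 CPM at 2 or 3, 2981 and 1269 CPM at 4 to 7 and 5624 and 1222 CPM at 8 or more UMIs. The steepest step thus lay outside the limit, between 2 or 3 and 4 to 7 UMIs in library 1, where the bin of 8 or more held 4 cells.

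Some genes were highest in the low cells themselves. Pcx, which encodes pyruvate carboxylase, was at 99.7 and 89.9 CPM in low, 42.1 and 58.8 CPM in high, 2.59 and 2.40 CPM in Gpihbp1 and 34.3 and 33.2 CPM in Plvap capillary cells. It passed against all 3 (log2 0.68 ± 0.19, 5.30 ± 0.34 and 1.42 ± 0.16, edgeR adjusted p = 0.0136, 8.68e-23 and 6.13e-11). Rbp7, a retinol-binding protein gene, was at 186 and 262 CPM in low, 131 and 199 CPM in high, 88.05 and 139.6 CPM in Gpihbp1 and 77.7 and 121 CPM in Plvap capillary cells, with overlap between low and high values (0.40 ± 0.13 against high, edgeR adjusted p = 0.048). Mal, a gene for a membrane raft protein, was at 273 and 189 CPM in low and 178 and 147 CPM in high cells and did not pass between them (0.40 ± 0.14, edgeR adjusted p = 0.0714), while it was above both capillary kinds. These 3 genes were picked from the named genes after their values were seen.

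Other lists are given mainly against high cells, where 2.36% of all genes tested were higher and 3.47% lower in low cells. Against Plvap capillary cells those shares were 5.51% and 4.06%. Counts of these lists against the capillary kinds are otherwise left out. Of 24 immediate early genes, which respond to stress and to cell isolation, 1 was higher and 6 lower than in high cells, and 7 higher and 1 lower than in Plvap capillary cells. Fos and Atf3 were among those lower than in high cells, and their part in the other differences was not tested. Of 25 interferon and MHC class I genes 2 were higher and none lower than in high cells, with a median of 0.13. Of 8 cell cycle genes none passed against high cells by edgeR. Of 19 leukocyte adhesion and venous genes 3 were higher and 2 lower than in high cells, and Vwf, the von Willebrand factor gene, was at 306 and 335 CPM in low, 510.0 and 364 CPM in high, 161 and 170.3 CPM in Gpihbp1 and 189 and 146 CPM in Plvap capillary cells. Of 16 axon guidance genes 3 were higher and 2 lower than in high cells, and of 19 VEGF, angiopoietin and apelin genes 5 were higher and 5 lower. Of 24 S100, annexin and cytoskeleton genes 1 was higher and 6 lower than in high cells, and S100a6 was at 293 and 432 CPM in low and 940.4 and 1172 CPM in high cells (-1.54 ± 0.11). Of 10 chemokine and receptor genes 2 were higher and 5 lower than in high cells. Without cells that held other cell types' markers, 9 of these were tested, 2 were higher and 1 was lower.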

How the data were processed

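Levels come from 2 single-cell 3' libraries (10x v3 chemistry, per the labels' protocols). The deposited matrices hold raw counts of UMIs for 31053 gene rows in each barcode. The submitters' processing notes name bcl2fastq 2.2, Cell Ranger 3.1.0 and mm10. The annotation is not given there. The members and the gene lists were chosen with earlier results of these data known. UMIs were summed per library and class, giving 8 sums (4 classes in 2 libraries), and tested with edgeR 4.0.16 (quasi-likelihood, robust, R 4.3.3) with TMM scaling, edgeR's expression filter (minimum count 10), library as a block and Benjamini-Hochberg adjustment at 0.05. The block was used because each library is 1 sample that supplied every class. The fit left 3 residual degrees of freedom and rests mainly on a spread shared across genes, with median prior degrees of freedom of 72.95. The SE was taken from F, as the size of the log2 fold change over the root of F. Selection genes were not tested. CPM are UMIs of a gene scaled to the class total, and intervals cover counting error only.

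Named genes were, per comparison, the 10 largest increases and 10 largest decreases that passed, reached 50 CPM in both libraries where higher and had the same direction in both, up to 4 members of each list, the markers given for the cells and the axis genes of highest level. Genes added beyond this rule were picked from the lists after their values were seen. Scrublet (scanpy 1.11.5) called 6 cells in either library, none of them low cells, which is too few to show that it worked, so doublets were not removed and a run without the highest 5% of scores was an alternative. Other alternatives were DESeq2 1.42.0, other scalings and filters, other limits on cells, thinned cells, equal cell numbers and matched cells. Restricting arterial cells to the Plvap kind, matching on the arterial sum, an arterial sum without Stmn2 and Fbln5, removing cells with other cell types' markers, thinning before the selection, the axis against 1 capillary kind, the axis genes apart in both libraries and the 2-fold genes for the share per cell were chosen after seeing the data. The fit was tested on simulated counts. Genes were matched by Ensembl ID to GENCODE vM21 on GRCm38 (9994 of 9996 tested).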

Additional observations from a re-analysis of the deposited data

How the results depend on the processing

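Main counts of genes called were 583 against high arterial, 1654 against Gpihbp1 capillary and 957 against Plvap capillary cells. In that order DESeq2 called 200, 877 and 364, edgeR without the replicate block called 192, 864 and 361, and equal cell numbers per class gave 345, 919 and 330. Against high cells, an arterial sum of at least 5 gave 339, thinned cells 163, matched cells 146 and an arterial sum without Stmn2 and Fbln5 383. A count without 1 of the 2 libraries could not be tested, since no residual degrees of freedom remain. Pairing by library is by design, and leaving it out turned the sign of no named gene that passed in the main fit.

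The mean position over the libraries was 0.565 for all axis genes, 0.582 for artery-side and 0.428 for capillary-side genes. These means averaged values of libraries 1 and 2 of 0.631 and 0.498, 0.639 and 0.526, and 0.405 and 0.450. Each library was read with genes chosen in the other, so the means could not be tested without 1 library. With no UMI of Fn1 and S100a4 against 4 or more, the means were 0.431, 0.461 and 0.265. That setting left 19 high cells in library 1. With an arterial sum of at least 5 the means were 0.668, 0.676 and 0.524. They were 0.670, 0.739 and 0.360 with thinned cells and 0.780, 0.777 and 1.07 with matched cells. On a linear scale they were 0.396, 0.316 and 0.680, and against the Gpihbp1 kind alone 0.749, 0.795 and 0.689. Capillary-side positions also moved to 0.386 with at least 1000 genes, 0.381 without the highest doublet scores and 0.467 in Plvap-kind cells. The midway placement therefore depends on these limits.

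Signs turned in matched cells for Cmah (0.25), Dkk2 (0.0897), Gja4 (0.25), Timp3 (0.0662) and Tmsb10 (-0.16) against high cells, and for Cd36 (-0.0284) and Fabp4 (-0.0657) against Plvap capillary cells. In Plvap-kind cells Cd36 (-0.0570) and Fabp4 (-0.10) turned against Plvap capillary cells. Fabp4 also turned with an arterial sum of at least 5 (-0.0047), and Stmn1, between -0.12 and 0.79 with 1 library left out. Of values for named genes, 1567 of 1898 were classed as unchanged against high cells, 1651 of 1860 against Gpihbp1 capillary and 1583 of 1920 against Plvap capillary cells. That class required no side of the threshold with 1 library left out, where no test was possible. A turned sign was counted only for genes that passed in the main fit. Depth limits genes under the filter, and 19 cells limit the Gpihbp1 low cells of library 1.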

Other observations

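The limits on endothelial, lymphatic and venous counts removed some cells that carried arterial genes. After the limits on genes and mitochondrial UMIs, 207 cells of library 1 and 1245 of library 2 had an arterial sum of 3 or more. Of these, 30 and 189 held more than 1 UMI of Ackr1, Selp and Madcam1, 7 and 116 held more than 2 lymphatic UMIs, and 13 and 100 held fewer than 5 UMIs of Flt1, Cd34, Plvap and Esam. These cells entered none of the classes.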
